A study of Mus musculus with 6 samples.

Results

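Ctla4, Cd7, Pdcd1, Cd247, Il17a and Gzma are 6 genes best known from T lymphocytes and natural killer cells, described here in a table of RNA sequencing of mouse osteoclasts. They were chosen by hand, by symbol, from values already seen in the same control columns, so their levels below are a description and no test is attached to them. All 6 were found, among 570 rows in all. The study grew osteoclasts, the bone-resorbing giant cells of the myeloid lineage, from wild-type C57BL/6 mice with RANKL and M-CSF. Its 3 interferon-gamma samples received that cytokine while they differentiated, and its 3 control samples did not; all 6 samples are labelled day 3. The only columns that match a sample by name are those of the 3 controls, called controls 1, 2 and 3 below. Nothing but these names ties the columns to the cultures. Markers of squamous epithelium and skeletal muscle sum to far higher values in these columns than the members do, as given at the end. Those marker lists were written with earlier results of these data known, so this contrast is a description and no test of what the samples were. Values of the interferon-gamma group are not analysed here, so nothing below says what interferon-gamma did to these genes.

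T cells recognise antigen through a receptor whose intracellular signal is carried by the CD3 chains and by CD3 zeta, the product of Cd247. Checkpoint receptors such as CTLA-4 and PD-1 then damp that signal, and activated T cells act on other cells through cytokines such as interleukin-17A and through granule proteases such as granzyme A. These cells also bear on bone. Interferon-gamma, itself made largely by T and natural killer cells, is known to restrain osteoclast formation, whereas interleukin-17A is known to favour it by raising RANKL on supporting cells. CTLA-4 is known to bind CD80 and CD86 on myeloid cells, among them the precursors of osteoclasts.

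Promoter sequences are shown first, as a feature of the members that played no part in their choice. RefSeq promoter sequences of GRCm38.p6, from 250 bases before to 50 after the transcription start, were found by symbol for 5 of the 6 genes. Of all 6 genes, 4 lie on chromosome 1 (66.7%), beside 38 of the 519 table rows with a known chromosome (7.32%). Gzma lies on chromosome 13, and Cd7, whose promoter is not shown, on chromosome 11. The 3 windows below are those of the highest of the genes in the control columns, of the other checkpoint receptor and of the gene with the widest spread. Capitals mark TATAA, the core of a TATA box, and GGAAA, the core of the sites bound by NFAT, a factor used by T cells and by osteoclasts, each on either strand (the opposite strand reads TTATA and TTTCC here); the sequences run 5′ to 3′ along the strand of the gene. The marked stretches did not overlap a motif of the other kind.

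Ctla4 promoter, chr1:60908775-60909074, plus strand: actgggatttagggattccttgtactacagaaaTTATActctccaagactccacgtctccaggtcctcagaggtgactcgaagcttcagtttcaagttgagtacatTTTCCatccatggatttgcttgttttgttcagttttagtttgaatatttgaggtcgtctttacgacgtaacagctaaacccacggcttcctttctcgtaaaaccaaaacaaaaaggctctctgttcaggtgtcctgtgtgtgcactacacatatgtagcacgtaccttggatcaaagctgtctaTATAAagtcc
Pdcd1 promoter, chr1:94052504-94052803, minus strand: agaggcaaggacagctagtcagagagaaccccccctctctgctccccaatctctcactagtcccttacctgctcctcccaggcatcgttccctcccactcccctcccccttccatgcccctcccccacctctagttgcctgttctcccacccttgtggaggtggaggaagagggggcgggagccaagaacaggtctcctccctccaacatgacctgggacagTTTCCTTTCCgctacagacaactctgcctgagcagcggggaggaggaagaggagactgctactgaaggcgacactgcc
Il17a promoter, chr1:20730655-20730954, plus strand: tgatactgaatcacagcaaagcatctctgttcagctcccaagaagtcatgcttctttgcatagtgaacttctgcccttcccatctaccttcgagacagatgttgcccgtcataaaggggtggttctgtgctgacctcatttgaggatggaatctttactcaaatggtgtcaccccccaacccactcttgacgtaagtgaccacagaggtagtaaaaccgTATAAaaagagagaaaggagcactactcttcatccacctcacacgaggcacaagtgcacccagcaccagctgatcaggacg

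The promoters differed in these letters. Il17a held TATAA on its own strand beginning 31 bases before the start, and Gzma held it beginning 27 bases before. A TATAA that begins 40 to 20 bases before the start on the gene's strand was present in 3.52% of 32851 promoters of the same length. Ctla4 had its TATAA after the start, beginning at base 41, and another on the opposite strand 217 bases before it. Neither Pdcd1 nor Cd247 had the letters TATAA or TTATA in the window, which 24.9% of all promoters held. GGAAA or its reverse was found in 3 of the 5 promoters, those of Ctla4, Pdcd1 and Gzma, and in 61.3% of all promoters. In Pdcd1 the pair of matches lay side by side, beginning 28 and 23 bases before the start. The Pdcd1 window was also the richest in G and C, at 60.7%, against 42.0% for Ctla4, 43.7% for Cd247, 47.7% for Gzma and 48.3% for Il17a; the median of all promoters was 52.7%. A match is a description of letters and not a measured binding site.

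All 6 genes had low values in the control columns. The deposited numbers are a normalised signal with no unit named, so the order of genes below holds on that scale only and assumes that gene length has been allowed for. Over all of them the lowest value was 0.241 and the highest 2.03. No member was listed at 0 in any control column, which holds for most rows, since only 5 of the 570 were listed at 0 in at least 1. The mean over the 3 columns was at least 1 for Ctla4 and Cd7 and below 1 for the other 4; among all rows, 306 reached 1. In a bulk sample, few cells that carry a transcript and little of it in each cell cannot be told apart.

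**Figure D1:**
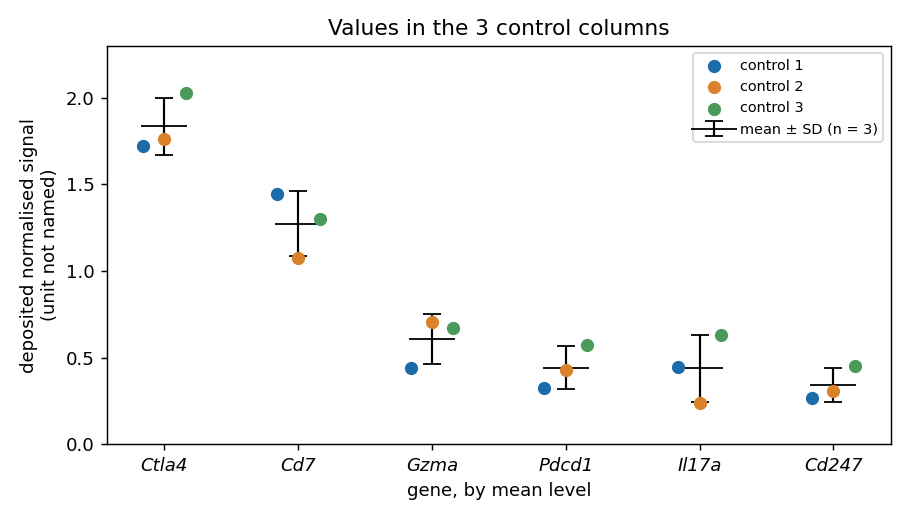
Values of the 6 genes in the control columns (points), in the deposited normalised signal on a linear axis, with the mean and SD over the 3 columns (black). Ctla4 and Cd7 stand apart from the other genes and from each other, while the columns of Gzma, Pdcd1, Il17a and Cd247 overlap from neighbour to neighbour.

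The T-cell receptor chain and the surface receptor of the group differed in level. Cd247, the signalling chain that carries the receptor's activation motifs and also serves receptors of natural killer cells, stood at 0.266, 0.306 and 0.452 in controls 1, 2 and 3. Its mean of 0.341 ± 0.0981 (SD, n = 3) was the lowest of the 6 genes and ranked 453 among the 570 rows. Control 3 was the high column, at 132% of the gene's mean, and the other columns lay at 77.8% and 89.7%. Cd7, an immunoglobulin-family receptor on the surface of T and natural killer cells, stood at 1.45, 1.08 and 1.30 in controls 1, 2 and 3. With a mean of 1.27 ± 0.187 (SD, n = 3) it ranked 273, just above the median row mean of the table, 1.18. Its high column was control 1 and its low column control 2, another order than that of Cd247. Cd7 was above Cd247 in all 3 columns, by 5.44, 3.51 and 2.88 times in controls 1, 2 and 3, and the columns of the genes did not overlap.

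The pair of checkpoint receptors stood far apart. Ctla4, the inhibitory receptor that competes with CD28 for its ligands, was the highest of the 6 genes, with 1.72, 1.76 and 2.03 in controls 1, 2 and 3. Its mean was 1.84 ± 0.165 (SD, n = 3), rank 229 of 570, and 59.8% of the rows lay below it. It was also the steadiest of the members, its highest column being 1.18 times its lowest. Pdcd1, which encodes PD-1, the inhibitory receptor for PD-L1 and PD-L2, stood at 0.326, 0.430 and 0.571 in controls 1, 2 and 3, with a mean of 0.443 ± 0.123 (SD, n = 3) and rank 418. Its columns spanned 1.75 times. The ratio of Ctla4 to Pdcd1 was 5.28, 4.10 and 3.55 in controls 1, 2 and 3, and no column of Pdcd1 came near the lowest of Ctla4. Both genes were lowest in control 1 and highest in control 3.

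By their means, the effector genes lay between Cd7 and Cd247. Gzma, a trypsin-like serine protease of cytotoxic granules, stood at 0.441, 0.708 and 0.669 in controls 1, 2 and 3, with a mean of 0.606 ± 0.144 (SD, n = 3) and rank 371. Control 1 was its low column, and the other columns lay close together. Il17a, the cytokine of T helper 17 cells and of a class of gamma-delta T cells, stood at 0.444, 0.241 and 0.629 in controls 1, 2 and 3. Its mean was 0.438 ± 0.194 (SD, n = 3), rank 421. It was the least steady of the 6 genes, with control 3 at 2.61 times control 2, so that its rank among the 570 rows was 370 in control 3, 408 in control 1 and 492 in control 2. Gzma exceeded Il17a in 2 of the 3 columns, by 2.94 times in control 2 but only 1.06 times in control 3, and their columns overlapped.

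**Figure D2:**
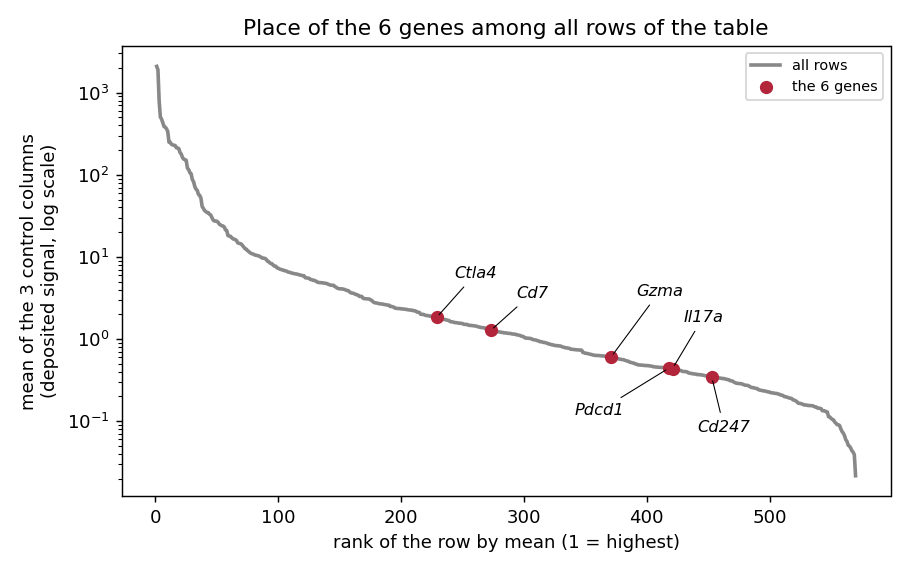
Mean of the 3 control columns for all 570 rows of the table, sorted from highest to lowest (log axis), with the 6 genes marked. Ctla4 (rank 229) and Cd7 (rank 273) lie above the median row, and the other 4 lie between ranks 371 and 453.

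By mean level the order of the genes was Ctla4, Cd7, Gzma, Pdcd1, Il17a and Cd247. The first 2 steps of this order exceeded the spread of the columns. The lowest Ctla4 value, 1.72, lay above the highest Cd7 value, 1.45, and the lowest Cd7 value, 1.08, lay above the highest Gzma value, 0.708. Below that the neighbours did not differ beyond their spread. Gzma was above Pdcd1 in 3 of 3 columns, but its lowest value, 0.441, lay below the highest of Pdcd1, 0.571. Pdcd1 and Il17a had means within 1.01 times of each other, with Pdcd1 the higher in 1 of 3 columns, and Il17a was above Cd247 in 2 of 3. The places of Pdcd1 and Il17a changed over when the median of the columns was used, or when control 2 was left out.

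The spread of the members can be set beside that of rows at a like level. Between a mean of 0.3 and 0.7 the table held 123 rows, and their coefficient of variation over the control columns had a median of 20.1% and quartiles of 12.6% and 27.7%. All 4 members in that band lay above its median, at 23.8% for Gzma, 27.8% for Pdcd1, 28.7% for Cd247 and 44.3% for Il17a. Only 6 of the 123 rows had a higher coefficient than Il17a. Between a mean of 1 and 2 there were 91 rows with a median of 11.5%; Ctla4 was below it at 8.98% and Cd7 above it at 14.6%. The number of reads behind these values is unknown, so how much of the spread is counting error was not tested.

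**Figure D3:**
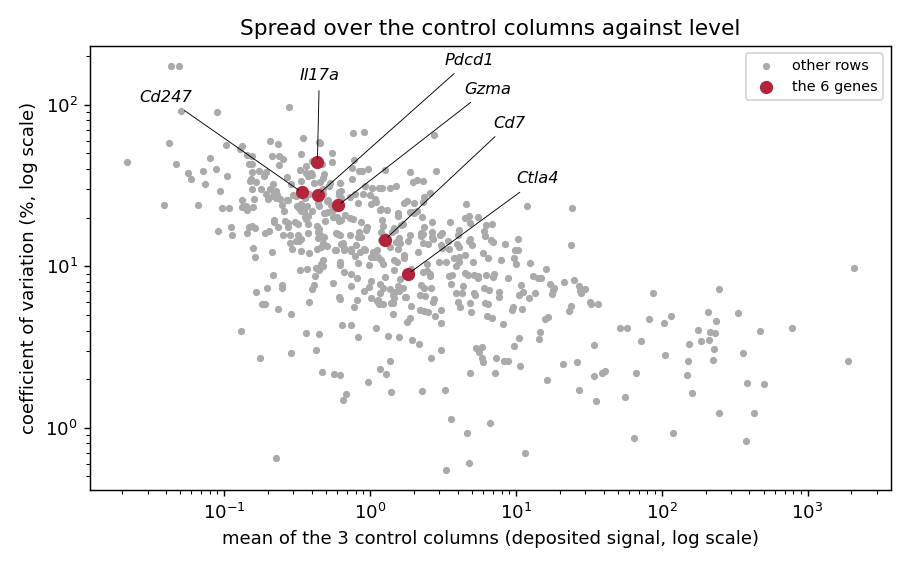
Coefficient of variation over the 3 control columns against the mean of the same columns, both on log axes, for the 6 genes (red) and the other rows (grey). Il17a, at 44.3%, lies near the upper edge of the rows of its level, and Ctla4, at 8.98%, among the steadier rows of its own.

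No single column was high for every member. Control 3 was the highest column for 4 of the 6 genes, Ctla4, Pdcd1, Cd247 and Il17a, as it was for 36.0% of all rows. Control 1 was the lowest for 4, Ctla4, Pdcd1, Cd247 and Gzma, as it was for 40.4% of all rows. Together the members made up a signal of 4.65, 4.52 and 5.65 in controls 1, 2 and 3, a share of 0.0341%, 0.0340% and 0.0418% of the sum over all rows of each column. The sums over all rows were 13620, 13318 and 13508, and these cover the listed rows only and are not library depths. Only Cd7 was highest in control 1, and Gzma alone was highest in control 2.

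**Figure D4:**
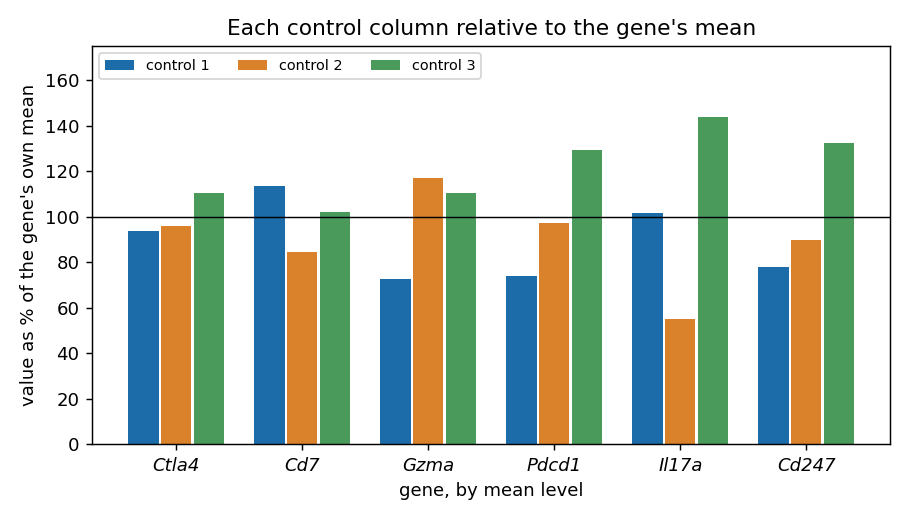
Each control column as a percentage of the gene's own mean, on an axis from 0, with a line at the mean. Control 3 (green) stands highest for Ctla4, Pdcd1, Il17a and Cd247, control 1 (blue) for Cd7 and control 2 (orange) for Gzma; Il17a in control 2 is the lowest bar, at 55.0%.

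The rows most like each member were found by the distance between their log2(value + 1) over the 3 control columns. Likeness here means a like value in each of 3 samples, and the order of the columns can still differ. Adding 1 shrinks differences the more the lower the values are, so distances cannot be compared between members of unlike level. On this scale the smallest distance, 0.0297, was that of Cd247, the lowest member, from the hexokinase gene Hk3. Hk3 stood at 0.275, 0.323 and 0.432 in controls 1, 2 and 3. The smooth-muscle actin gene Actg2 followed for Cd247, at 0.0366. Pdcd1 lay nearest to Ccl28, a chemokine gene of mucosal epithelium, at 0.0403, and to Abi3 at 0.0596. The nearest rows of Gzma were Chad, at 0.0832, and the neutrophil granule gene Ngp, at 0.118. Il17a lay nearest to the kallikrein gene Klk1b26, at 0.0914, and to Scml2, at 0.128, and both of these shared its low value in control 2. Cd7 was nearest to the cornified envelope gene Sprr2b, at 0.112, and to Apbb1ip, at 0.138. Ctla4 was nearest to Cep55, a cytokinesis gene, at 0.103, and to Micall2, at 0.104. Some of these rows had another order of columns than their member. Micall2 was lowest in control 2, unlike Ctla4, while Sprr2b and Ngp were highest in control 3, unlike Cd7 and Gzma. No member was among the 2 nearest rows of another.

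Listed genes other than the members were among the rows about as often as genes in general. The 9 lists for T cells, checkpoint receptors and their ligands, effectors, interleukin-17 and its targets, and innate lymphoid cells name 139 genes, of which 9 were rows, the 6 members and 3 others. Those 3 are 2.26% of the 133 listed genes that are not members, beside 2.35% of all 21900 protein-coding RefSeq genes (515 were rows). The lists were written with earlier results of these data known, and the 6 members were left out because they were chosen from the rows. Some lymphocyte genes among the rows, given at the end, are on none of the lists. The share therefore describes the lists and tests nothing about the pathways. Of 24 genes for the T-cell receptor complex, its proximal signalling and other T-cell surface receptors, the rows hold Cd247 and the surface receptor Cd7. The others, among them Cd3e, Cd3d, Cd3g and Lck, are not analysed here. Of 17 co-stimulatory and checkpoint receptors the rows hold Ctla4 and Pdcd1, of 15 cytotoxic effectors Gzma and of 15 genes for interleukin-17 cytokines and their receptors Il17a. None of 20 T-cell transcription factor, cytokine and homing genes, of 11 natural killer and innate lymphoid markers or of 8 B-cell markers was among the rows. The name of the table presents its rows as differentially expressed genes, so a gene that is no row cannot be read as silent.

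The 3 genes beyond the members touch them from the side of ligand, target and cell type. Sectm1b, whose product is a ligand of CD7, was the 1 row among 15 ligand genes, with 2.04, 2.42 and 1.92 in controls 1, 2 and 3 and a mean of 2.13 ± 0.260 (SD, n = 3). It was highest in control 2, as were 34.2% of all rows, and Cd7 was lowest in that column. Lcn2, which interleukin-17A is known to induce in epithelium and other tissue cells, was the 1 row among 15 target genes, at 66.7 ± 1.46 (SD, n = 3), with 68.4, 65.5 and 66.4 in controls 1, 2 and 3. Scart1, listed under its synonym Cd163l1 and known as a scavenger receptor of gamma-delta T cells, was the 1 row among 7 gamma-delta T-cell markers, at 0.150, 0.257 and 0.181 in controls 1, 2 and 3. Like Sectm1b, Scart1 was highest in control 2, where Il17a was lowest, and no link within these pairs was tested.

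Markers of the labelled cell type and of other cells gave the setting for these low values. Their lists were written with earlier results of these data known, so the counts and sums are a description only. Of 14 osteoclast markers 1 was among the rows, Car2 at 10.9 ± 0.829 (SD, n = 3), and of 11 macrophage markers none, so the label could not be checked on the defining genes Acp5 and Ctsk. Of 11 squamous epithelium markers 5 were rows, with a summed level between 2823 and 3171 over the columns that was mostly that of Mt4 (1960 to 2321), and of 12 skeletal muscle markers 10, with a summed level between 679 and 699. Of 8 neutrophil markers 2 were rows, Ngp and Camp, and their summed level was 0.439, 0.972 and 1.35 in controls 1, 2 and 3. Car2 stood at 9.97, 11.2 and 11.6 in controls 1, 2 and 3. It was lowest in control 1, as were the neutrophil and muscle sums, Ctla4, Pdcd1, Cd247, Gzma and 40.4% of all rows. The squamous sum, the largest of these, was highest in control 1, at 3171, 2823 and 2844 in controls 1, 2 and 3. Among its rows that held for Mt4 only. Flg and Lce1d were highest in control 2, and Kprp and Sprr2d in control 3. The muscle sum moved little, at 679, 699 and 698, and its row Mylpf was highest in control 1. Camp was listed at 0 in control 1, so the neutrophil sum there is that of Ngp alone. The part of other cells in the members' values was not tested.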

How the data were processed

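RNA of 6 mouse osteoclast samples was sequenced after poly(A) capture, per the labels' protocols. An aligner, Bowtie2 2.4.4, and 2 builds, GRCm39 and the human GRCh37, appear in the submitters' processing notes without a role, and no counting tool is named there. The authors normalised the expression signal before they deposited it as 1 table of 570 rows, judged from its fractional values with no number below 0. What unit they have, and how genes entered the table, is not stated. Of its 6 value columns, 3 carry the names in the control titles (the libraries have other names in the labels), and the other 3 match no sample label and were not used in any step.

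Means and SDs were taken over the 3 control columns. The labels do not say whether they were separate animals or cultures; their SD may thus be a technical one. No test was run, since 0 columns could be given to interferon-gamma. The members, the 15 gene lists and the rules were chosen with earlier results of these data known. Named genes are the members, the rows of lists around them, the 2 nearest rows of each member and a few rows of each other cell type. Depth is unknown: over 194 rows with a mean below 0.6, no relative depth of 2 columns made more than 8.25% of the ratios of columns equal to a ratio of whole numbers up to 60 (log ratio within 1.5e-05). Row symbols were matched to a RefSeq table of GRCm38.p6, a build that the notes do not name; it was used for names, chromosomes and promoters only. The calculations of spread and nearest rows were run on simulated data with near-copies of rows as neighbours and the same relative spread at every level. That checks the code only, and not the neighbours or spreads reported here. Python 3.11.15, pandas 2.3.3, numpy 2.4.6 and matplotlib 3.10.9 were used.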

Additional observations from a re-analysis of the deposited data

How the results depend on the processing

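No paired analysis was possible because only control samples have a column. The planned comparison of the groups and its alternatives, the replicate block among them, were therefore not run. The level of each of the 6 genes was recomputed with the median, the geometric mean, columns scaled to equal sums or by median ratio, and each control column left out. The largest move, 1.28 times, was that of Il17a, and the scalings moved no level by more than 1.0023 times. With 1 column left out the mean ranged from 1.74 to 1.89 for Ctla4, 1.19 to 1.37 for Cd7, 0.555 to 0.689 for Gzma, 0.378 to 0.501 for Pdcd1, 0.342 to 0.536 for Il17a and 0.286 to 0.379 for Cd247. The first 3 places of the order held in every one of these settings that was tried for it (median, and each column left out).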

Other observations

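A few more rows of the table are genes of lymphocytes and of the signals around them. They were picked after their values were seen and are on none of the lists, and they were not tested. Itgal, the alpha chain of the leukocyte integrin LFA-1, had 0.764, 0.706 and 0.758 in controls 1, 2 and 3, a coefficient of variation of 4.32% at a level close to that of Gzma. Jak3, the kinase of the common gamma-chain cytokine receptors, was at 0.472 ± 0.139 (SD, n = 3), near Pdcd1 and Il17a in level. Its high column was control 2, unlike either of those genes. Irf4, a transcription factor of activated lymphocytes that is also used by myeloid cells, was at 0.198 ± 0.0144, and Zbtb16, which encodes the innate-like lymphocyte factor PLZF and is also made by other tissues, at 0.134 ± 0.0746 (SD, n = 3).

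Vtcn1, a B7-family ligand that inhibits T cells and is made by epithelium, stood at 0.653, 0.582 and 0.337 in controls 1, 2 and 3. It was lowest in control 3, as were 28.1% of all rows. The checkpoint receptors Ctla4 and Pdcd1 were highest in that column, as were 36.0% of all rows, and no link between these genes was tested. Osm, a cytokine of activated T cells and myeloid cells, stood at 0.617, 0.742 and 0.846 in controls 1, 2 and 3. Il24 stood at 1.46, 0.789 and 1.41 in controls 1, 2 and 3. It was lowest in control 2, as were Il17a and 31.6% of all rows.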
